A study of Homo sapiens with 24 samples.

Results

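The comparison described here is the response to hydrogen peroxide of HEK293 cells that carried the EVI1-AQA plasmid; HEK293 is a long-established line of human embryonic kidney origin. Its members are 6 of the 24 libraries of the series: 3 of EVI1-AQA cells exposed to 150 μM H2O2 for 8 h and 3 of EVI1-AQA cells left untreated, chosen by their labels and paired by batch. The other 18 libraries hold untransfected cells, cells with the empty vector (pCMV-flag) and cells with wild-type EVI1 (pCMV-EVI1-WT-flag), each with and without H2O2 in 3 batches, and they serve here to show where the EVI1-AQA response differed. EVI1-AQA (pCMV-EVI1-AQA-flag) carries alanine in place of the serine residues near the carboxy terminus that the kinase ATM phosphorylates. All constructs were introduced by transient transfection under the CMV promoter, so that a culture is a mixture of cells with different amounts of plasmid. The labels do not say whether the replicates of a group came from separate cultures, and p-values then measure only the spread between these samples.

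EVI1 is a zinc finger transcription factor that recruits co-repressors such as CtBP to its target genes and is overexpressed in some aggressive myeloid leukaemias. Hydrogen peroxide oxidizes thiols and breaks DNA, which activates ATM, the p53 pathway, the antioxidant program and the AP-1 family of immediate early factors. Typical p53 targets are cell cycle brakes and survival inhibitors such as GADD45A, BTG2 and PHLDA3, whereas antioxidant genes are driven by NRF2 through a short promoter element.

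The deposited values are log2 expression of 11579 transcripts (rows), which range from -4.49 to 4.91 and average 0 for every transcript within each batch of 8 libraries. They therefore carry differences between libraries of a batch, but no level, and the read depth behind them is unknown. Genes are named here only from the 1131 rows whose identifier lies on chromosome 1 of GRCh38, since the labels of chromosomes 2 to 22 look shifted against the values: on chromosome 1, 50.7% of protein-coding genes but 2.39% of other genes had a row, against 19.3% and 16.4% on chromosomes 2 to 22. None of 21 symbols of chromosome 1 markers of blood, muscle, skin and vessel cells had a row. These symbols include both names of the loricrin gene, LOR and LORICRIN. HEK293 has no defining marker among the genes that can be named.

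Some libraries stood apart from the group their label gives, in 1 row. This row, labelled CACNB3 in the file, separated plasmid groups by several log2 units, and its label cannot be trusted for the reason given above. Its log2 value was 4.14, 4.05 and 2.62 in untreated EVI1-AQA cells of batches 1, 2 and 3. With H2O2 it was 4.79 and 3.73 in batches 2 and 3, but -2.60 in batch 1, where the untransfected and empty vector libraries with H2O2 were at -2.98 and -3.48. In batch 2 the empty vector library with H2O2 (4.36) and the EVI1-WT library with H2O2 (-4.38) also stood on the side opposite to their groups. The H2O2 library labelled EVI1-AQA in batch 1 thus stands apart, and results are given by batch and, where the unadjusted call of a named gene or the count of a list changes, without it.

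In all rows together, 868 of 11579 (7.50%) rose and 847 (7.31%) fell with H2O2 in EVI1-AQA cells at an unadjusted p under 0.05 in limma with the batch as a block. On chromosome 1, 94 of 1131 rows (8.31%) rose and 62 (5.48%) fell, and of these 84 and 54 had the same sign in all 3 batches. After Benjamini-Hochberg adjustment over all rows, 12 (0.104%) rose and 52 (0.449%) fell. On chromosome 1 these were 2 that rose, TMEM222 and PRPF38B, and 2 that fell, ADGRB2 and ARHGEF16 (0.177% each). In 135 chromosome 1 rows (11.9%) all 3 treated libraries were above all 3 untreated ones and in 124 (11.0%) below, as in 11.0% and 11.3% of all rows. For comparison, 7.69% of chromosome 1 rows rose and 5.75% fell in EVI1-WT cells, 9.28% and 7.25% in empty vector cells, and 8.66% and 6.19% in untransfected cells. In bulk RNA, fewer cells with a transcript and less of it per cell cannot be told apart. The count of adjusted calls moved with the batch 1 library: without it, 34 rows rose and 100 fell in the fit of the other 23 libraries. Below, each change is the mean of the 3 within-batch differences on the log2 scale with limma's standard error, and "rose" and "fell" refer to the unadjusted threshold.

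The promoters of 4 genes are shown because ADGRB2 and TMEM222 had the lowest p of the chromosome 1 genes that fell and rose, whereas NHLH2 and GNL2, which also rose, carried a motif of a factor that H2O2 activates. NHLH2 was chosen for its motif after its values were seen. Each sequence holds the 250 bases before the RefSeq start of the gene, read 5′ to 3′ on the strand of the gene, from RefSeq on GRCh38.p14. The gene positions given below come from GENCODE, whose starts can differ. The window of ADGRB2 lies within its GENCODE span, and that of TMEM222 runs into it. Capitals mark the AP-1 motif (TGANTCA) in NHLH2 and the antioxidant response element (TGACNNNGC) in GNL2, searched on both strands. Neither motif was found in the windows of ADGRB2 and TMEM222.
ADGRB2, chr1:31764341-31764590, minus strand: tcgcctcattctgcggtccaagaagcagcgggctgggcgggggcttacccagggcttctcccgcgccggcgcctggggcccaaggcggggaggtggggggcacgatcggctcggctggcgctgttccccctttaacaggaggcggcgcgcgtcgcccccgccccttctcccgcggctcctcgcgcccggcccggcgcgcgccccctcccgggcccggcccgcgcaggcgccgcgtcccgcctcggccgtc
TMEM222, chr1:27321995-27322244, plus strand: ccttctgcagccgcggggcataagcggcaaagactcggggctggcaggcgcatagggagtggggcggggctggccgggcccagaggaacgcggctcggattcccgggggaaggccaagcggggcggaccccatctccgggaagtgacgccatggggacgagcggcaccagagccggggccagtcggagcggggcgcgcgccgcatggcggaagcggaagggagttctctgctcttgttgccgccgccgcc
NHLH2, chr1:115841127-115841376, minus strand: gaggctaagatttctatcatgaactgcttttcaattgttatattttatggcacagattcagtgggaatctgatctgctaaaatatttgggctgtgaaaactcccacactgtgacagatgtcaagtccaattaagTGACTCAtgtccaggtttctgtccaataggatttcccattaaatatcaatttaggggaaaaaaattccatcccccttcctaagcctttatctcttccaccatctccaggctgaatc
GNL2, chr1:37595938-37596187, minus strand: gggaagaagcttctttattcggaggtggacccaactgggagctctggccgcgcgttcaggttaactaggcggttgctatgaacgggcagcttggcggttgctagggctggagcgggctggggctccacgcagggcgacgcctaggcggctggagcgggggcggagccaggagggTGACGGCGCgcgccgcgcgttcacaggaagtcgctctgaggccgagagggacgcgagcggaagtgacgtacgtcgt
Of the 94 rows that rose, 72 had a promoter in the RefSeq table, as had 55 of the 62 that fell. The AP-1 motif was in 4 promoters of rows that rose (5.56%) and 4 of rows that fell (7.27%), against 4.26% of 938 promoters of chromosome 1 rows and 6.57% of all 35116 promoters. The antioxidant response element was in 9 that rose (12.5%) and 5 that fell (9.09%), against 10.7% and 10.9%. A promoter may hold both, as the AP-1 letters can overlap the element. Matches to GACAAGATA and GAAGATGAG, which the first and second zinc finger domains of EVI1 bind, numbered 0 in both directions, with 0 and 4 matches among the 938 promoters. These counts describe letters in the windows and say nothing of whether a factor was bound.

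ADGRB2 (chr1:31727117-31764893, minus strand), an adhesion G protein-coupled receptor known from the brain, had the lowest p of the chromosome 1 genes that fell. Its log2 value was 0.69, 0.58 and 0.98 in untreated EVI1-AQA cells and -0.68, -0.82 and -0.74 with H2O2 in batches 1, 2 and 3. The treated libraries were close to each other and all below the untreated ones. The change was -1.50 ± 0.21 (SE), which leaves 0.354 of the untreated expression, with an adjusted p of 0.00229. In EVI1-WT cells ADGRB2 also fell, by 0.46 (adjusted p = 0.391 in limma), with differences of -0.46, -0.49 and -0.43. The 9 differences of the other 3 states ran from -0.69 to 0.81. None of these reached the smallest fall in EVI1-AQA cells, but the gene was chosen for its low p in those cells.

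ARHGEF16 (chr1:3454665-3481113, plus strand), a guanine nucleotide exchange factor, was the other gene that fell after adjustment. It was at 1.04, 0.55 and 0.51 untreated and at -0.82, -0.43 and -0.48 with H2O2, with no overlap and the widest gap in batch 1. The change was -1.28 ± 0.26 (SE), with an adjusted p of 0.0332. Without the H2O2 library of batch 1 the change was -1.14 with an adjusted p of 0.0623.

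TMEM222 (chr1:27322145-27336400, plus strand), which encodes a membrane protein, had the lowest p of the chromosome 1 genes that rose. It was at -0.47, -0.65 and -0.39 untreated and at 0.79, 0.38 and 0.21 with H2O2, and every treated library was above every untreated one. The change was 0.96 ± 0.17 (SE), or 1.95-fold, with an adjusted p of 0.0198. PRPF38B (chr1:108692310-108702928, plus strand), a pre-mRNA splicing factor, went from 0.01, -0.27 and -0.39 to 0.42, 0.77 and 0.39. These groups did not overlap either, and the untreated library of batch 1 came nearest to the treated ones. Its change was 0.74 ± 0.15 (SE), with an adjusted p of 0.0332. PRPF38B also rose in EVI1-WT cells, by 0.37, and in empty vector cells, by 0.39. The adjusted calls of all 4 genes depended on the number of libraries: leaving out a whole batch gave an adjusted p of 0.139 to 0.293 for TMEM222, 0.099 to 0.405 for PRPF38B, 0.136 to 0.223 for ARHGEF16 and 0.0179 to 0.191 for ADGRB2.

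Of the other 8 leading rows that rose, DDX20, TOE1, GNL2 and TRIT1 are known from the processing of RNA and the assembly of ribosomes. DDX20, an RNA helicase of the SMN complex that assembles spliceosomal snRNPs, rose by 0.63 ± 0.14, with differences of 0.56, 0.86 and 0.48. TOE1, a nuclease that trims the ends of snRNAs, rose by 0.81 ± 0.19, and GNL2, a nucleolar GTPase of the large ribosomal subunit's assembly, by 0.73 ± 0.18. TRIT1, which modifies an adenosine beside the anticodon of some tRNAs, rose by 0.68 ± 0.18. CENPL, a constitutive centromere protein, rose by 0.65 ± 0.17, C1orf27, also known as ODR4, by 0.56 ± 0.15, and C1orf50, of little known function, by 0.84 ± 0.20. RP11-570P14.1 rose by 0.70 ± 0.20, but it is a processed pseudogene and may take reads of its parent gene. In these 8 rows the adjusted p lay between 0.0517 (DDX20) and 0.111 (RP11-570P14.1). DDX20 also rose in each of the other states, and CENPL in EVI1-WT (0.49) and empty vector cells (0.44). In EVI1-WT and untransfected cells TRIT1 rose by 0.44 and 0.48 and C1orf27 by 0.35 and 0.37. RP11-570P14.1 fell by 0.53 in empty vector cells, and TOE1, GNL2 and C1orf50 passed in none of the other states.

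**Figure D1:**
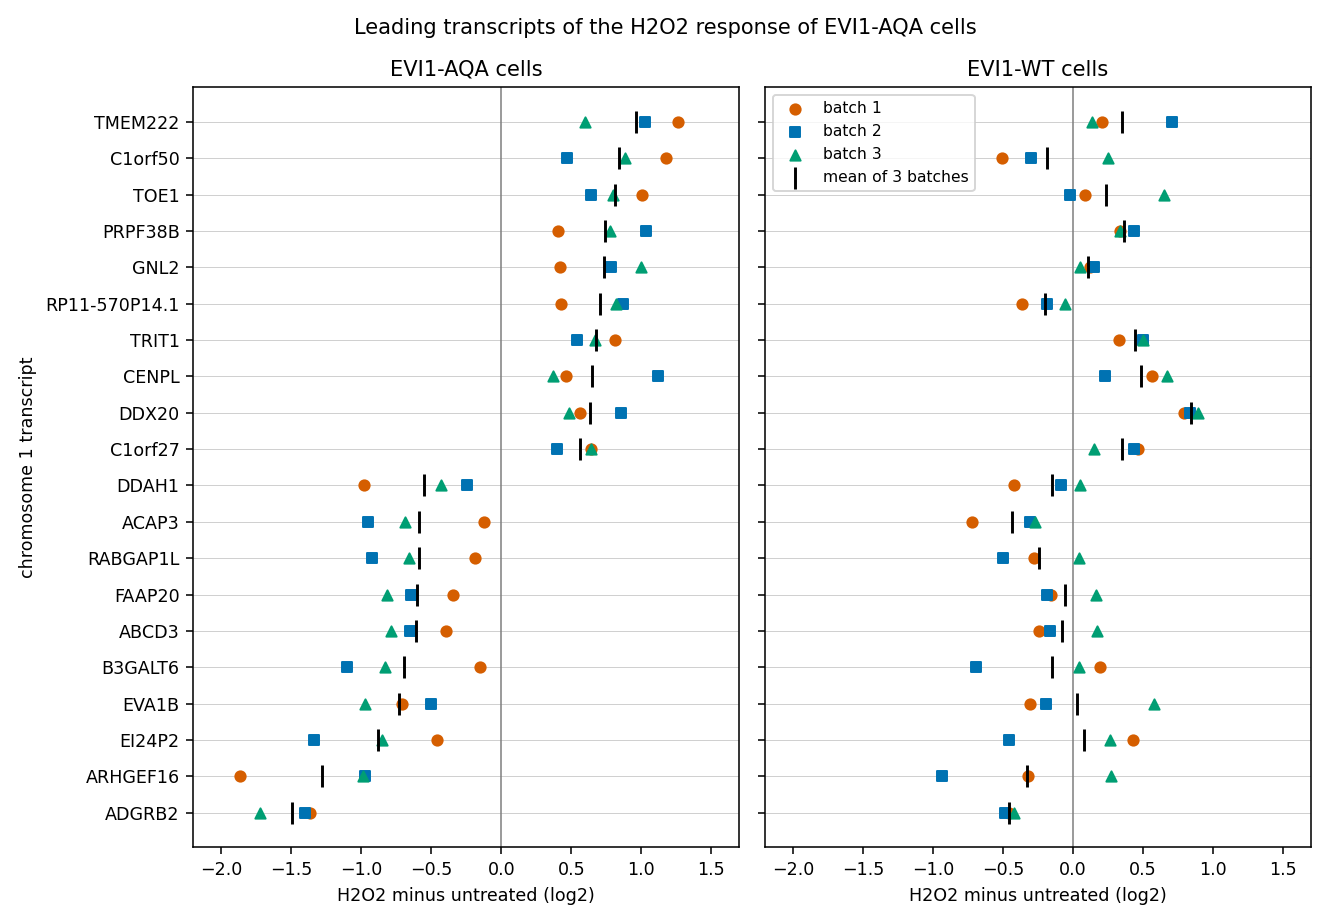
H2O2 minus untreated difference on the log2 scale (x axis) of the 10 rows on chromosome 1 with the lowest p in each direction (y axis), by batch (colour and shape) and as the mean of 3 batches (black bar), in EVI1-AQA cells (left) and EVI1-WT cells (right). All 3 EVI1-AQA points lie on 1 side of 0 by the choice of the rows, whereas in EVI1-WT cells DDX20 (mean 0.84) and ADGRB2 (-0.46) keep 1 sign and C1orf50 (-0.51, -0.30 and 0.25) does not.

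The other 8 leading rows that fell have varied known roles. RABGAP1L, which switches off Rab GTPases, fell by 0.59 ± 0.16 on the log2 scale, and ACAP3, which does so for Arf GTPases, fell by 0.59 ± 0.18. ABCD3, an importer of fatty acids into peroxisomes, went from 0.41, 0.26 and 0.32 to 0.02, -0.39 and -0.46, a fall in every batch. FAAP20, a subunit of the Fanconi anaemia core complex, fell by 0.60 ± 0.18, and DDAH1, which degrades asymmetric dimethylarginine, fell by 0.55 ± 0.17. EVA1B, a membrane protein, fell by 0.73 ± 0.23, and B3GALT6, which builds the linker of glycosaminoglycans, fell by 0.70 ± 0.22. The row of EI24P2 fell by 0.88 ± 0.27 and is again a processed pseudogene. The adjusted p of these 8 rows was 0.0976 to 0.151. RABGAP1L also fell in empty vector cells, by 0.76 (adjusted p = 0.0475 in limma), and in untransfected cells, by 0.36. ACAP3 fell by 0.43 in EVI1-WT cells, whereas EVA1B and B3GALT6 rose in untransfected cells, by 0.53 and 0.50. ABCD3, FAAP20, DDAH1 and EI24P2 passed in none of the other states. For RABGAP1L, ACAP3 and B3GALT6 the batch 1 difference was the smallest in size, at -0.19, -0.13 and -0.15.

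The p53 targets did not move together across batches. GADD45A (chr1:67685201-67688334), a stress sensor that halts the cell cycle, was at -1.43, -0.79 and -0.03 untreated and at 1.59, -0.25 and -0.06 with H2O2. PHLDA3 (chr1:201464278-201469237), which inhibits Akt signalling, was at -0.57, -0.06 and 0.11 untreated and at 2.48, -0.01 and 0.02 with H2O2. In both genes only the treated library of batch 1 was high, and the groups overlapped. Both passed the unadjusted threshold over 3 batches, with changes of 1.18 ± 0.48 and 1.00 ± 0.44 (adjusted p = 0.266 and adjusted p = 0.297). Neither did without that library, where the changes were 0.51 for GADD45A (adjusted p = 0.617) and 0.06 for PHLDA3 (adjusted p = 0.917).

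BTG2, an antiproliferative p53 target, differed by 1.52 in batch 1 and by -0.18 and -0.32 in batches 2 and 3 (adjusted p = 0.666). For PHLDA3 the batch 1 difference of 3.05 lay outside the range of the 9 differences of the other states, -0.47 to 0.64. So did the 3.02 of GADD45A, with a range of 0.02 to 2.12, and the 1.52 of BTG2, with -0.31 to 0.93. In GADD45A batch 1 also gave the largest difference in each other state, at 1.79 in EVI1-WT, 1.83 in empty vector and 2.12 in untransfected cells. In PHLDA3 and BTG2 this did not hold in every state. Of the 13 measured p53 targets and regulators, 9 exceeded 0.5 in batch 1 (median 0.62), 2 in batch 2 (median 0.05) and 0 in batch 3 (median -0.09), whereas 11.7%, 11.5% and 13.9% of chromosome 1 rows did so. In EVI1-WT cells the same counts were 5, 4 and 0, in empty vector cells 4, 5 and 2, and in untransfected cells 5, 1 and 3. The library of batch 1 with the high p53 targets is the one whose CACNB3-labelled row lay with untransfected cells, and whether it is mislabelled was not tested.

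EPHA2, an ephrin receptor kinase, differed by 0.79, -0.14 and -0.25 and IER5, an immediate early gene, by 0.52, -0.69 and -0.69, again with batch 1 alone above 0. For EPHA2 all 9 differences of the other states were above 0, from 0.13 to 2.27. Batch 1 again gave the largest in each of them, at 0.95 in EVI1-WT, 2.27 in empty vector and 2.16 in untransfected cells.

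TXNIP, an inhibitor of thioredoxin, also had batch 1 alone above 0, with differences of 0.25, -0.71 and -1.68 (adjusted p = 0.505). Without the treated library of batch 1, TXNIP fell by 1.18 (adjusted p = 0.22) and IER5 by 0.55 (adjusted p = 0.215) at the unadjusted threshold. All 9 differences of the other states were below 0, from -2.03 to -0.13. CLSPN, which brings CHK1 to stalled replication forks, differed by -0.30, 0.83 and 0.91 (adjusted p = 0.388). It passed the unadjusted threshold only without the treated library of batch 1, at 0.78 (adjusted p = 0.113). In both genes batches 2 and 3 had 1 sign and batch 1 the other.

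**Figure D2:**
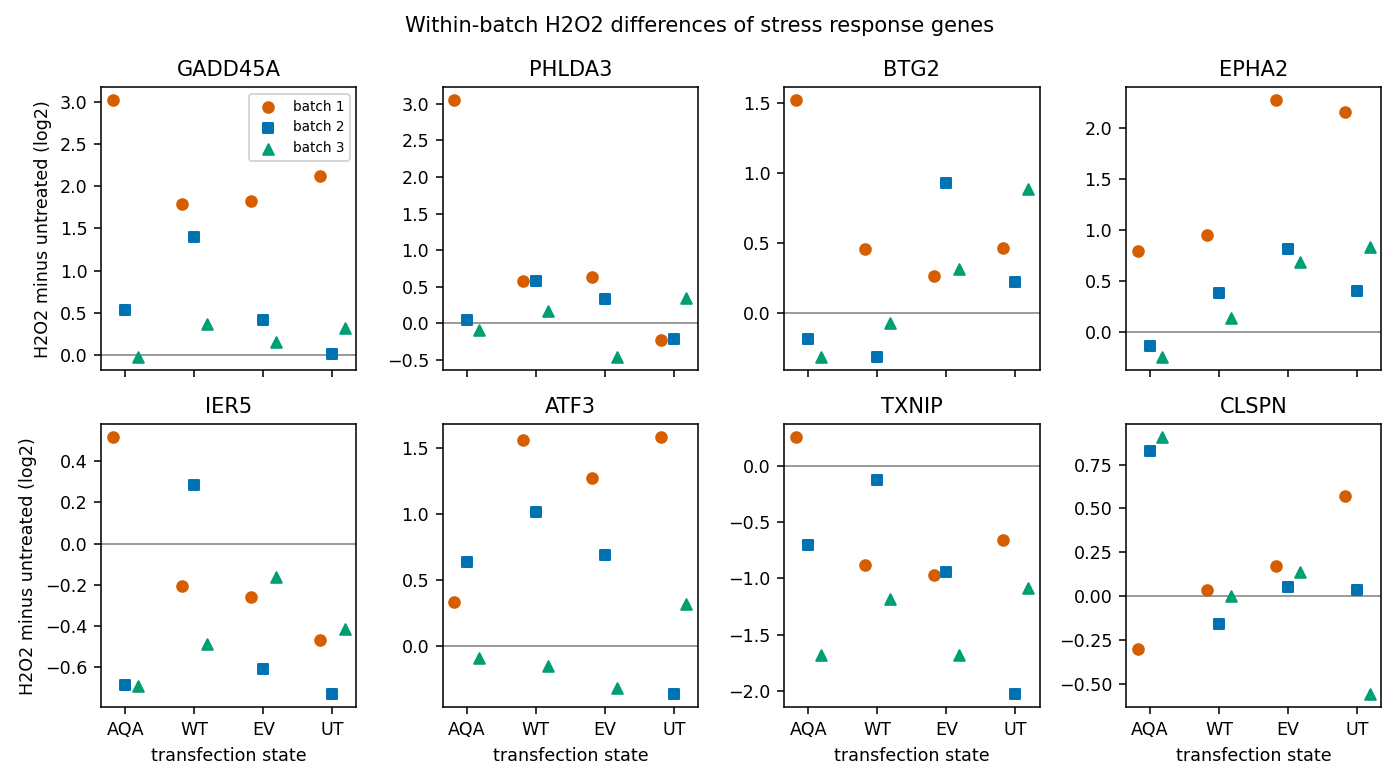
H2O2 minus untreated difference on the log2 scale (y axis, its own range for each gene) of 8 genes in EVI1-AQA (AQA), EVI1-WT (WT), empty vector (EV) and untransfected (UT) cells, with 1 point for each batch. In EVI1-AQA cells the batch 1 points of GADD45A (3.02), PHLDA3 (3.05) and BTG2 (1.52) lie far above those of batches 2 and 3, which stay between -0.32 and 0.53.

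Across all 11579 rows, the Pearson correlation of the EVI1-AQA within-batch differences was 0.47 between batches 2 and 3, of 0.13 between batches 1 and 2 and of 0.08 between batches 1 and 3. On chromosome 1 the values were 0.40, 0.07 and 0.12 over 1131 rows. For the other 3 states the 9 correlations between batches ran from 0.16 to 0.33. These are descriptions across transcripts, which are not independent of each other, and 36.6% of all rows had the same sign in the 3 batches of EVI1-AQA cells.

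**Figure D3:**
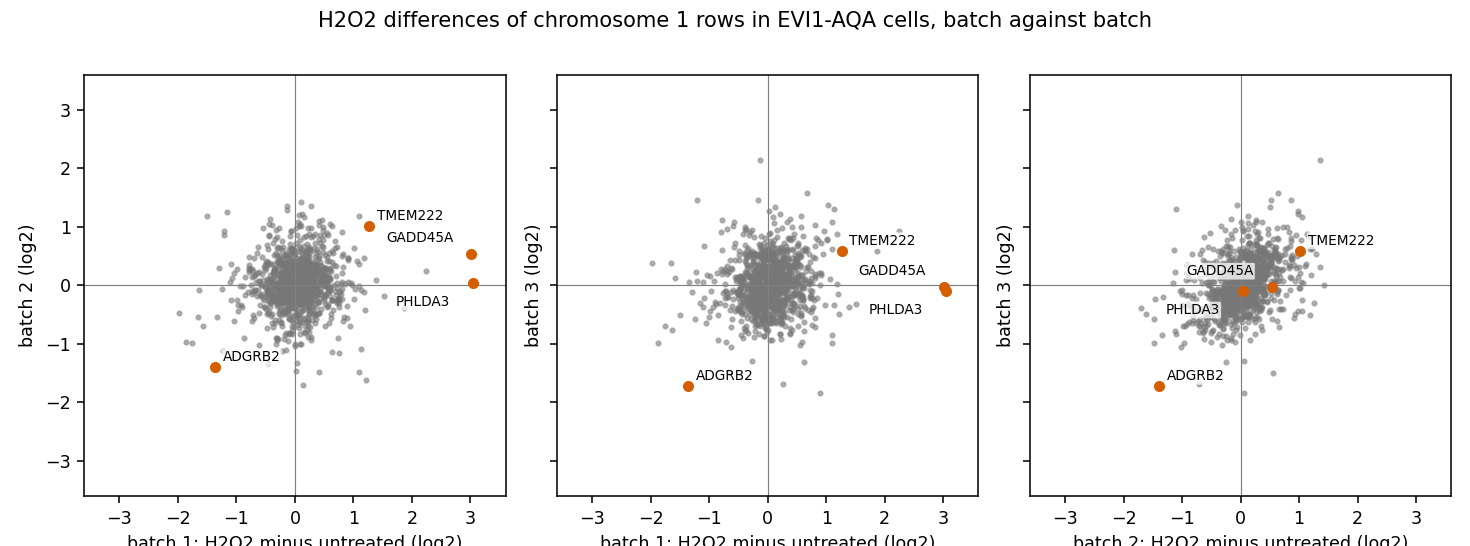
Differences between H2O2 and untreated EVI1-AQA cells on the log2 scale for 1131 rows on chromosome 1, with 1 batch on each axis and 1 point for each row. Batches 2 and 3 (right) spread along the diagonal with a correlation of 0.40, whereas GADD45A and PHLDA3 stand out along batch 1 alone, at 3.02 and 3.05, and ADGRB2 and TMEM222 keep their side in all 3 panels.

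The response was then measured on the transcripts that H2O2 moved in the other cells. A fit without any EVI1-AQA library chose 666 rows that rose and 523 that fell, and a library's score is the mean of the former minus the mean of the latter. Untreated EVI1-AQA cells scored -0.03, -0.14 and -0.03 and treated ones 0.15, 0.30 and 0.14, which did not overlap. The untreated libraries of the other states scored -0.73 to -0.20. The treated libraries scored 0.22 to 0.65, a range that the treated EVI1-AQA cells overlap at its lower end. The difference in EVI1-AQA cells was 0.18, 0.44 and 0.17 (0.26 ± 0.15, SD, n = 3).

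Since the other states were used to choose those rows, neither their lower untreated scores nor their larger differences (0.91 to 1.08) are a comparison with EVI1-AQA cells. When each state was scored on rows chosen without its own libraries, a setting added after the data were seen, the differences were 0.93 ± 0.25 (SD, n = 3) in EVI1-WT, 1.02 ± 0.18 in empty vector and 0.49 ± 0.31 in untransfected cells. The untransfected differences of 0.85, 0.36 and 0.26 overlapped those of EVI1-AQA cells, whereas the EVI1-WT and empty vector ones, the lowest of which was 0.68, did not. The numbers of rows chosen differed between states. They were 187 that rose and 136 that fell for EVI1-WT and 165 and 135 for empty vector cells. For untransfected cells they were 639 and 577, and for EVI1-AQA cells 666 and 523. The states with fewer rows had the larger differences, so that state and choice of rows cannot be told apart in these scores. No p is given for them.

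The response was compared directly between EVI1-AQA and EVI1-WT cells by the difference of their H2O2 changes. It was above 0 at an unadjusted p under 0.05 in 45 chromosome 1 rows (3.98%) and below 0 in 51 (4.51%). None of the 11579 rows passed the adjusted threshold in limma, with 403 rows above (3.48%) and 476 below (4.11%) at an unadjusted p under 0.05. STPG1, which encodes a protein with sperm-tail repeats, had the lowest p of the rows below. Its differences were -0.31, -0.33 and -0.49 in EVI1-AQA cells and 0.44, 0.23 and 0.53 in EVI1-WT cells. They were opposite in every batch, which the choice of the row by this contrast favours. The contrast was -0.77 ± 0.20 (adjusted p = 0.565), and -0.94 when the 3 libraries that go against their groups were left out.

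ADGRB2 followed, with a contrast of -1.04 ± 0.29 (adjusted p = 0.565). SNRNP40, a component of the U5 snRNP of the spliceosome, had a contrast of -0.64 ± 0.20 (adjusted p = 0.606), from differences of -0.07, -0.31 and -0.57 in EVI1-AQA and 0.39, 0.49 and 0.10 in EVI1-WT cells. All 9 differences of the other states were above 0 for both STPG1 (0.04 to 0.77) and SNRNP40 (0.10 to 0.69), and all 3 of EVI1-AQA cells were below 0. Both rows were chosen for a low p in the contrast with EVI1-WT cells, so that opposite signs in EVI1-AQA and EVI1-WT cells are no further support. Above 0, C1orf50 led with 1.03 ± 0.28 (adjusted p = 0.565), followed by the processed pseudogenes CTD-2090I13.2 (1.11 ± 0.33) and RP11-570P14.1 (0.91 ± 0.28). For the H2O2 responses against empty vector cells, 55 chromosome 1 rows lay above (4.86%) and 72 below (6.37%), again with 0 of all rows adjusted in limma and 559 (4.83%) and 756 (6.53%) unadjusted.

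Against untransfected cells, 62 chromosome 1 rows lay above (5.48%) and 81 below (7.16%), of 688 (5.94%) and 836 (7.22%) in all. Here 9 rows above (0.0777%) and 58 below (0.501%) passed the adjusted threshold, of which TMEM222 (0.0884% of chromosome 1 rows), ADGRB2 and TESK2 (0.177%) are on chromosome 1. TESK2 (chr1:45343883-45491163, minus strand), a kinase that phosphorylates cofilin, was at 0.53, 0.29 and 0.81 in untreated and 0.11, 0.12 and -0.08 in treated EVI1-AQA cells, which did not overlap. In untransfected cells it differed by 0.44, 0.70 and 1.55, and the contrast was -1.39 with an adjusted p of 0.0444. TESK2 overlaps the end of TOE1 (chr1:45340052-45343973, plus strand), which rose, and whether the counting used strand is not given in the sources used here. Untransfected cells also lack any plasmid, so that transfection and EVI1-AQA cannot be told apart in this contrast. Against empty vector cells the contrast was -0.37 for TESK2, -1.36 for ADGRB2 and 0.78 for TMEM222. Their adjusted p in limma was 0.692, 0.119 and 0.23.

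Pathway lists on chromosome 1 were small, and their counts are read against the 8.31% of chromosome 1 rows that rose and 5.48% that fell. Of 15 measured antioxidant genes, only GLRX2, a mitochondrial glutaredoxin, rose, by 0.60 ± 0.17 with differences of 0.49, 1.01 and 0.32, and none fell. PRDX1 and PRDX6, which reduce peroxides, had changes of 0.01 and 0.04, and GCLM, the regulatory subunit of glutathione synthesis, 0.11. The list's median was 0.04, beside 0.03 over all chromosome 1 rows. When the H2O2 library of batch 1 was left out, 2 rose, GLRX2 and the glutathione transferase GSTM3 (0.39), and TXNIP fell. Of 12 immediate early genes only GADD45A rose, and the median was 0.21, with 0.32, 0.08 and -0.20 by batch. In the fit without the treated library of batch 1 none rose, IER5 fell and the median was -0.01. JUN, a subunit of AP-1, had a change of -0.17 (adjusted p = 0.869). ATF3, a stress-induced factor of the same family, differed by 0.33, 0.64 and -0.09.

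Splicing was the longest list and had the highest count of members that rose, but not the highest share. Of 31 measured members, 6 rose and 1 fell, and the median was 0.18, with medians of 0.24, 0.11 and 0.11 in batches 1, 2 and 3. Those that rose were PRPF38B, PTBP2 (0.53 ± 0.19), SRSF11 (0.36 ± 0.14), SRSF10 (0.40 ± 0.17), RBM15 (0.41 ± 0.18) and THRAP3 (0.36 ± 0.16), and SNRNP40 fell by 0.31 ± 0.14. SRSF10 and SRSF11 belong to the SR protein family, PTBP2 is a neuronal repressor of exons, and RBM15 and THRAP3 bind RNA in the nucleus. For SRSF10 the batches gave 0.41, 0.46 and 0.33, whereas PTBP2 differed by 1.07 in batch 1 and by 0.42 and 0.11 in the others. The medians of the list in EVI1-WT, empty vector and untransfected cells were 0.14, 0.20 and 0.22. With the H2O2 library of batch 1 left out, 5 rose and 2 fell, with a median of 0.09. PTBP2 (0.27) and SRSF10 (0.37) then no longer passed, whereas PRPF38A rose by 0.39 and YBX1 fell by 0.52.

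Of 16 genes of DNA replication and repair, RPA2, a subunit of the protein that coats single-stranded DNA, rose by 0.31 ± 0.11. DCLRE1B, a nuclease that protects telomeres, rose by 0.39 ± 0.14, and FAAP20 fell. DCLRE1B also changed by 0.41, 0.49 and 0.62 in EVI1-WT, empty vector and untransfected cells. Of 24 mitotic genes only CENPL rose and none fell. Leaving out the H2O2 library of batch 1, 4 replication and repair genes rose, CLSPN and NASP (0.46) among them, and 1 fell.

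Among 14 genes of apoptosis and MAP kinase signalling, MKNK1 and DUSP12 rose. MKNK1, a kinase of the translation factor eIF4E, was at -0.23, -0.23 and -0.40 untreated and at 0.20, 0.11 and 0.20 with H2O2. The groups lay apart by more than their spread, and the contrast with EVI1-WT cells was 0.59 ± 0.21 (adjusted p = 0.606). DUSP12, a dual-specificity phosphatase, rose by 0.48 ± 0.16 with 0.51, 0.53 and 0.39 by batch. The list's median was -0.12, since 8 of the 14 changes were below 0.

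Of 19 chromatin genes, ARID4B (0.55 ± 0.20), RNF2 (0.39 ± 0.15) and MTF2 (0.36 ± 0.17) rose and none fell. RNF2 is the ubiquitin ligase of Polycomb complex 1, MTF2 is an accessory subunit of Polycomb complex 2, and ARID4B belongs to a histone deacetylase complex. MTF2 no longer passed when the H2O2 library of batch 1 was left out (0.31), so that 2 of the 19 rose. HDAC1, a histone deacetylase of co-repressor complexes, had a change of -0.27 ± 0.13 (adjusted p = 0.343). All 8 measured EVI1 partners and TGF-beta genes had changes below 0 (-0.36 to -0.03, median -0.15), and none of these passed the test. Over all chromosome 1 rows, 619 of 1131 changes were above 0, and whether the list differs from this share was not tested. When the H2O2 library of batch 1 was left out, 1 of the 8 fell. Of 4 RNA helicases DDX20 rose, and in all 9 differences of the other states it was also above 0, from 0.31 to 1.02.

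Single members rose in 3 further lists: COA7 of 10 respiratory chain genes (0.26 ± 0.12), MRPL20 of 10 mitochondrial ribosome genes (0.28 ± 0.13) and SNHG12 of 3 hosts of small nucleolar RNAs (0.63 ± 0.20). Neither COA7 (0.19) nor MRPL20 (0.28) passed without the H2O2 library of batch 1, and SNHG12 did. COPA, a subunit of the coat of Golgi vesicles, fell by 0.39 ± 0.13 as the only one of 11 genes of endoplasmic reticulum stress and secretion that passed the test, and 2 of the 11 rose, SSR2 (0.44) among them, without that library. None of 11 genes of tRNA charging and amino acids, 6 of cholesterol synthesis, 5 of the proteasome and 5 of the cytosolic ribosome passed the test. Without that library the cholesterol genes FDPS rose by 0.90 and LBR fell by 0.49. In the ribosome list, RPS27 differed by -0.62, -1.02 and -1.05 (adjusted p = 0.377), while RPL5 and RPL11 had changes of 0.12 and 0.16. In the other states RPS27 ran from -0.38 to 2.00.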

How the data were processed

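Poly-A RNA of HEK293 cells was sequenced from the 3' ends of transcripts (Lexogen QuantSeq FWD, NextSeq500). The authors aligned the reads to GRCh38 with Ensembl gene models. Normalization was done in the program Qlucore Omics Explorer, where transcripts had to reach an FPKM of 10. The deposited values are log2 expression of 11579 transcripts in 24 libraries, and their mean within each batch of 8 was found to be 0 (largest departure 4.5e-06). The read depth is not given in the sources used here, so no counting interval or detection limit is given.

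Groups and batches come from the labels. The batch number in the labels equals the replicate number and pairs the libraries. A linear model of the 8 groups with the batch as a block was fitted to all 24 libraries (R 4.3.3, limma 3.58.1), with 14 residual degrees of freedom and 5.04 from the prior. Contrasts were two-sided with thresholds of p under 0.05, unadjusted and Benjamini-Hochberg adjusted over all rows. The fit was tested on simulated data with known changes. Tables and plots were made with matplotlib 3.10.9, scipy 1.17.1, pandas 2.3.3 and numpy 2.4.6 under Python 3.11.15. An exact test of 3 against 3 libraries cannot go below 0.1, so p-values rest on the model across all rows.

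Positions come from GENCODE 44, which holds 10892 of the 11579 identifiers (94.1%), including 1131 on chromosome 1. Named were, on chromosome 1 only, the 10 rows with the lowest p in each direction among those with 1 sign in all 3 batches, the 3 with the lowest p in each direction of the contrast with EVI1-WT cells, members of the gene lists that passed the test with up to 3 more for each list, and rows past the adjusted threshold. Outside this rule, ATF3, EPHA2, JUN, HES5, HES4, DVL1, MIB2, GNB1, PRDX1, GCLM, NHLH2 and PRDX6 were chosen after their values were seen. The comparison, the lists and the rules were chosen with earlier results of these data known. Alternatives were no block, only the libraries compared, no moderation, median centring, quantile normalization, leaving out each batch, and leaving out the libraries that go against their labels. Promoters come from RefSeq on GRCh38.p14. EVI1 transcripts were not analysed here.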

Additional observations from a re-analysis of the deposited data

Results flagged for a closer look

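The H2O2 response of EVI1-AQA cells differed from that of untransfected cells by a test of the difference itself in 67 rows at an adjusted p under 0.05 in limma. On chromosome 1 these were ADGRB2, with a difference between the responses of -1.66 on the log2 scale (adjusted p = 0.0163), TESK2, with -1.39 (adjusted p = 0.0444), and TMEM222, with 1.12 (adjusted p = 0.0415). In ADGRB2 all 3 EVI1-AQA differences were below the 3 of untransfected cells (-0.12, 0.21 and 0.40). In TMEM222 all 3 were above them (0.07, -0.39 and -0.17). Without the H2O2 library of EVI1-AQA batch 1 the adjusted p of TMEM222 was 0.0603.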

How the results depend on the processing

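The labels give no depth and 3 libraries a group, which limits every test above, and the counts depended on which libraries were used. Leaving out 1 batch at a time gave 513 to 822 rows that rose and 493 to 879 that fell in EVI1-AQA cells, and 55 to 95 and 33 to 67 on chromosome 1. Without the H2O2 library of EVI1-AQA batch 1 these were 910, 984, 102 and 83. The adjusted threshold gave 12, 52, 2 and 2. Leaving out 1 batch, the contrast with EVI1-WT cells gave 234 to 434 rows above and 275 to 491 below (chromosome 1, 18 to 42 and 32 to 38), that with empty vector cells 433 to 619 below (chromosome 1, 44 to 54), and that with untransfected cells 311 to 670 and 436 to 862 (chromosome 1, 30 to 58 and 32 to 68). When the same H2O2 library was left out, the counts were 504 and 648 (50 and 67), 894 (78), and 748 and 965 (75 and 88) in the same order. Adjusted, the contrasts with EVI1-WT and empty vector cells gave 0 rows in each direction, and that with untransfected cells 9 above and 58 below (1 and 2 on chromosome 1). Of the adjusted counts in EVI1-AQA cells, 12 rose and 52 fell with the replicate block and 80 and 154 without it, 0 and 0 in a fit of these 6 libraries only, 23 that rose without moderation, 26 and 109 after quantile normalization, 0 to 4 and 0 to 16 without 1 batch, 34 and 100 without the H2O2 library of batch 1, and 26 and 96 without the 3 libraries that go against their labels. The replicate block moved no count at the unadjusted threshold by over 1.5 times. Of the named genes' values under the alternatives, 444 kept direction and side of the threshold, 75 kept only the direction, and 1 turned: PHLDA3 without batch 1, at -0.022. Of the list medians, 165 moved by less than the spread between batches and 15 by more. The cause of these shifts was not tested.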

Other observations

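Genes near the end of the short arm of chromosome 1 fell more often than the rest in EVI1-AQA cells, a pattern noticed after the values were seen and given here as counts. In the first 5 Mb, 15 of 56 rows fell (26.8%) and 6 rose, whereas 47 of the other 1075 rows fell (4.37%). The 15 include ARHGEF16, the Notch effectors HES4 (-0.46) and HES5 (-1.14), DVL1 (-0.51), a transducer of Wnt signals, MIB2 (-0.46), a ubiquitin ligase of Notch ligands, and GNB1 (-0.29), a G protein subunit. HES5 was also below 0 in all 9 differences of the other states, from -2.89 to -0.65. HES4, by contrast, rose in empty vector (0.36) and untransfected cells (0.37), and its change in EVI1-WT cells was -0.10. The count was 13 when the H2O2 library of batch 1 was left out, and without batch 1, 2 or 3 it was 12, 5 or 10. In EVI1-WT, empty vector and untransfected cells 6, 2 and 3 of the 56 rows fell. The last 500 bases of the longest transcript had a median GC content of 57.7% in these rows and of 41.4% in the others. Among the 281 chromosome 1 rows of highest GC content, 14 of 44 rows in the first 5 Mb fell and 15 of 237 elsewhere. The part of GC content in these counts was not tested further.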
